A study of Rattus norvegicus with 24 samples.

Results

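Translational efficiency, the number of ribosome footprints a transcript carries relative to its RNA, was compared between liver and brain of young rats aged 6 months. The comparison rests on 12 of the 24 libraries of the study: liver ribosome profiling, liver RNA-seq, brain ribosome profiling and brain RNA-seq, each from the same 3 young animals. The other 12 libraries are the same set from 3 old rats aged 24 months and were used as a second set of animals, to class transcripts by RNA difference and in a test of age. The labels name no strain, sex or treatment. Translational efficiency was the footprint level divided by the RNA-seq level of the same animal and organ, both in CPM, counts scaled to a common library total. Transcripts counted as expressed in both organs when their mean RNA-seq level was at least 1 CPM in young liver and in young brain and they had at least 10 footprint counts on average in at least one organ. Of 22938 transcripts in the files, 10420 met this rule, and 10542 met its RNA-seq part alone. The lowest mean level kept was 1.001 CPM and the highest left out was 0.9995 CPM.

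In ribosome profiling, RNase digests the RNA that ribosomes do not cover, and the fragments protected inside them are sequenced. The number of fragments on a transcript follows how much RNA there is and how many ribosomes each copy carries, which depends on how often translation starts and how fast ribosomes move. RNA-seq of the same tissue supplies the first of these, so the ratio of the measurements is read as ribosome load per RNA. Liver cells make and secrete most plasma proteins, and neurons of the brain also translate RNA far from the cell body, in dendrites and axons. Long coding sequences tend to carry fewer ribosomes per unit of length than short ones in many species.

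The files identify transcripts by Ensembl identifiers alone, and 0 of the 22938 identifiers matched the gene tables at hand. Gene names, functions, tissue markers and sequences are therefore not given, and only the transcripts with the largest differences are named. Young liver footprint libraries held 11839887 to 17584871 counts and young liver RNA-seq libraries 17932008 to 21134842. Young brain footprint libraries held 5652238 to 12932497 counts and young brain RNA-seq libraries 15018979 to 15447209. The tested transcripts took 64% to 67.3% of counts in liver footprints, 70.7% to 74% in liver RNA-seq, 83% to 83.2% in brain footprints and 85.9% to 86.5% in brain RNA-seq. Fewer cells of a type and less RNA per cell cannot be told apart in whole-tissue libraries, and a ratio for an organ averages over its cell types.

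Within each organ, translational efficiency spanned a wide range. The 10th and 90th percentiles of the log2 ratio lay at -1.39 and 1.12, -1.46 and 1.15, and -1.45 and 1.09 in the livers of animals 1, 2 and 3. In their brains they lay at -1.19 and 1.16, -1.33 and 1.12, and -1.23 and 1.10. The distance between these limits was 5.71-fold to 6.11-fold in liver and 5.02-fold to 5.48-fold in brain, and every liver had a wider spread than every brain. The centre of the scale is set by the scaling of the libraries, so the ratios are relative to other transcripts of the same tissue and do not compare total protein synthesis between organs.

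Efficiencies were alike between animals and less alike between organs. Across the 10420 transcripts, Pearson's r of log2 efficiency was 0.877 to 0.935 between livers of different animals, 0.90 to 0.933 between brains of different animals, and 0.71 to 0.751 between liver and brain of the same animal. Transcripts are not independent replicates, and values of one animal and organ share a tissue piece, so these are descriptions. The difference between liver and brain efficiency, computed in each animal, correlated at 0.663 to 0.706 between animals.

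The ends of the ranking were partly shared. Of the 1042 transcripts in the lowest 10% of efficiency in liver, 576 (55.3%) were also in the lowest 10% in brain. Of the 1042 in the highest 10% in liver, 534 (51.2%) were also in the highest 10% in brain. Large moves were few: 52 transcripts were in the lowest 10% in liver but above the median in brain, and 30 were in the lowest 10% in brain but above the median in liver. At the other end, 35 transcripts were in the highest 10% in liver but below the median in brain, and 74 were in the highest 10% in brain but below the median in liver.

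**Figure D1:**
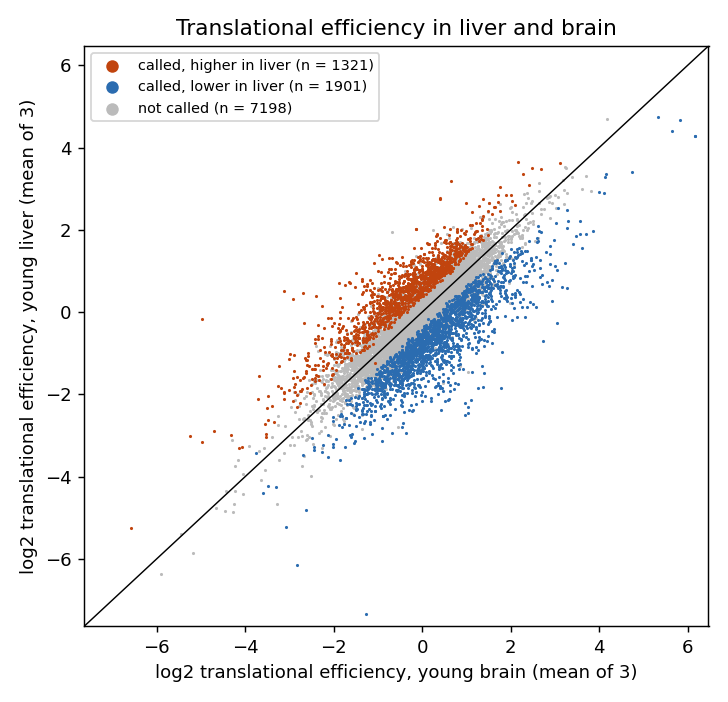
Each point is one of 10420 transcripts, with its log2 translational efficiency in young brain on the horizontal axis and in young liver on the vertical axis (means of 3 animals, TMM-scaled CPM with 0.5 added), and the line marks equal efficiency. Orange points (1321) were called higher in liver, blue points (1901) lower in liver and grey points (7198) were not called; most transcripts follow the line, and the strays reach further below it than above it.

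Translational efficiency differed between the organs for 3222 of 10420 transcripts (30.9%), with 1321 (12.7%) higher in liver and 1901 (18.2%) lower in liver. The test was the interaction of organ and assay in edgeR's quasi-likelihood model with the animal as a block, at a Benjamini-Hochberg adjusted p under 0.05. Among the transcripts called higher the median log2 difference was 0.84, and among those called lower it was -0.96. A change of at least 2-fold was found for 434 (4.17%) of the tested transcripts toward liver and for 886 (8.5%) toward brain, and of at least 4-fold for 57 and 140. All 3 animals had the direction of the call in 1318 of the 1321 and 1886 of the 1901. The calls were made from these same animals, so this is a description and no separate replication. Without animal 2 the count was 1403 (519 higher, 884 lower) and without animal 3 it was 1784 (670 higher, 1114 lower), against 3227 without animal 1. The direction split depends on the scaling: with plain CPM, which moves the median difference of all transcripts to -0.30 on the log2 scale from -0.05 with TMM, 619 were called higher and 3017 lower. With upper-quartile factors 1599 were called higher and 1647 lower, and with median-ratio factors 1521 and 1730.

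Transcripts that were not called are not all shown to be alike. Of 7198 not called, the 95% interval of the difference stayed within 2-fold in either direction for 4717, and for 2481 it reached past 2-fold. Calls followed depth: of the transcripts in the most abundant of 3 equal groups 40.8% were called, in the middle group 31.8% and in the least abundant group 20.1%, where the median standard error of the log2 difference was 0.154, 0.214 and 0.359. Transcripts called higher in liver took 16.8 ± 0.21% of the tested footprint counts in liver and 10.7 ± 0.1% in brain (SD, n = 3), and 12.8 ± 0.1% and 12.3 ± 0.15% of RNA-seq counts in liver and brain. Transcripts called lower in liver took 10.9 ± 0.86% of footprint counts in liver and 27.3 ± 0.21% in brain, and 20.3 ± 1.4% and 26.7 ± 0.82% of RNA-seq counts. The calls chose these transcripts, so their shares are a description.

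For comparison, RNA-seq alone differed between the organs for 8235 of the 10420 transcripts (79%; 4074 or 39.1% higher and 4161 or 39.9% lower in liver) and footprints alone for 7320 (70.2%; 3602 or 34.6% higher and 3718 or 35.7% lower), by edgeR with the animal as a block. These splits by direction hold for TMM scaling, and those with plain CPM were not tested. The standard deviation of the log2 difference over transcripts was 1.95 for RNA-seq, 2.20 for footprints and 0.77 for efficiency. Across transcripts, RNA-seq and footprint differences correlated at r = 0.938, measured in separate libraries of the same animals and organs. Differences in efficiency were thus smaller across transcripts than those in RNA or in footprints.

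The widest gap was that of ENSRNOT00000064242, whose RNA was abundant in both organs while footprints were nearly missing in liver. In liver its footprints stood at 0.444, 0.232 and 0.667 CPM (3, 2 and 7 counts), against 133, 143 and 137 CPM in brain. Its RNA-seq level was 162, 159 and 130 CPM in liver and 321, 323 and 353 CPM in brain. The organs did not overlap in either assay, and RNA differed by far less than footprints. Its mean footprint level was 0.00298 of its mean RNA level in liver and 0.414 in brain. The log2 difference in efficiency was -7.04 (edgeR, SE 0.252, 95% interval -7.58 to -6.50, adjusted p = 2.14e-09), and it was called under all 20 alternatives, at -7.69 to -6.07. Its liver footprints were few, and the part of traces from brain in them was not tested.

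ENSRNOT00000051951 had the second largest difference toward brain among the transcripts that met the rule for naming. Its mean footprint level was 0.00631 of its mean RNA level in liver and 0.138 in brain. It was thus poorly loaded in both organs, and more so in liver. Its footprints stood at 0.444, 0.58 and 0.0953 CPM in liver (3, 5 and 1 counts), against 7.46, 6.29 and 3.29 CPM in brain. RNA-seq gave 65.1, 58.5 and 53.8 CPM in liver and 38.2, 39.8 and 45.7 CPM in brain. Here, with TMM scaling, the RNA was higher in all 3 livers and the footprints were lower in all 3. By library totals its brain RNA-seq level was 131%, 137% and 156% of its mean liver level, so the direction in RNA depends on the scaling. The log2 difference in efficiency was -4.47 (edgeR, SE 0.5, adjusted p = 4.28e-05), and it was called under all 20 alternatives at -4.90 to -3.31. The liver value rests on few footprint counts.

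The largest rise in liver was found for ENSRNOT00000055628. Its footprints stood at 201, 366 and 361 CPM in liver, against 2.52, 2.27 and 1.12 CPM in brain (45, 18 and 15 counts). Its RNA was also higher in liver, at 287, 377 and 354 CPM, against 67.3, 70.3 and 85.8 CPM in brain. In liver footprints were on average 0.912 of the RNA-seq level, which is near the middle of all transcripts, and in brain they were 0.0265 of it. The low value thus lay in brain. The log2 difference was 5.03 (edgeR, SE 0.317, 95% interval 4.34 to 5.72, adjusted p = 1.65e-06), called under all 20 alternatives at 4.52 to 5.63.

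ENSRNOT00000024622 was abundant in liver and scarce in brain. Its footprints reached 861, 1090 and 1310 CPM in liver, against 0.785, 0.126 and 0.224 CPM in brain (14, 1 and 3 counts). RNA-seq gave 662, 686 and 933 CPM in liver, against 6.58, 6.74 and 6.92 CPM in brain. The log2 difference in efficiency was 4.38 (edgeR, SE 0.361, adjusted p = 5.21e-06), called under all 19 alternatives in which it was tested, at 3.63 to 5.75.

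For transcripts of such unequal abundance, the level of the other organ's transcripts matters, and it was measured on CPM by library totals. The 50 most abundant transcripts with a liver RNA-seq level over 64 times that of brain summed to 0.068% to 0.0753% of their liver level in the 3 young brain footprint libraries and to 0.0515% to 0.0557% in brain RNA-seq. The 50 matching brain-enriched transcripts summed to 0.184% to 0.195% of their brain level in young liver footprints and to 0.25% to 0.265% in liver RNA-seq. On the same scale, ENSRNOT00000024622 stood at 0.171%, 0.028% and 0.0495% of its mean liver level in the brain footprints of animals 1, 2 and 3 and at 1.75%, 1.78% and 1.82% in brain RNA-seq. Its footprints were above the range of the 50 in animal 1 and below it in animals 2 and 3, and its RNA was far above the range. In brain footprints, ENSRNOT00000064242 stood at 70000%, 77200% and 73100% of its mean liver level in animals 1, 2 and 3. Its mean liver footprint level thus lay below the range of the 50 brain-enriched transcripts. The part of traces from the other organ in the efficiency of either transcript was not tested. Among tested transcripts, 109 were over 64-fold higher in liver RNA and 43 over 64-fold higher in brain RNA. Of the 109, 21 were called higher and 13 lower in efficiency, and of the 43, 3 were called higher and 13 lower, where 12.7% and 18.2% of all tested transcripts were called higher and lower. With all of these left out, 3199 of the remaining transcripts were called (1372 higher, 1827 lower).

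With TMM scaling, differences in efficiency were not limited to transcripts whose RNA differed by 0.5 or more on the log2 scale. On that scaling, RNA-seq levels differed by less than 0.5 on the log2 scale between the organs for 3318 transcripts. Of these, 461 (13.9%) were called higher and 504 (15.2%) lower in liver efficiency, near the 12.7% and 18.2% of all tested transcripts. The young RNA-seq counts enter both the choice of these transcripts and their efficiency, so the shares are a description. The named ones below have the largest differences among them. By library totals, the brain RNA-seq level of these named ones was 169% to 264% of their mean liver level. Their RNA is thus alike between the organs only with TMM scaling.

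ENSRNOT00000005372 carried fewer footprints in liver, with a smaller difference in RNA. Its footprints stood at 8.58, 10.9 and 8.77 CPM in liver, against 58, 60.3 and 63.1 CPM in brain, with RNA-seq at 37.2, 48.3 and 46.7 CPM in liver and 44, 57.2 and 58.3 CPM in brain. RNA was lower in the liver than in the brain of each animal (log2 difference -0.27 in the fit, edgeR adjusted p = 0.0162), though the ranges of the organs overlapped, and the footprint ranges were far apart. The log2 difference in efficiency was -2.43 (edgeR, SE 0.163, 95% interval -2.78 to -2.08, adjusted p = 1.33e-06). ENSRNOT00000023548 was scarcer and moved the same way, with footprints at 3.25, 1.86 and 2.95 CPM in liver against 19.1, 24.3 and 16.4 CPM in brain, and RNA-seq at 11.1, 10.2 and 12.6 CPM in liver against 11.6, 12.3 and 13.9 CPM in brain. Its log2 difference was -2.74 (edgeR, SE 0.306, adjusted p = 3.89e-05). Both were called under all 20 alternatives, at -2.86 to -2.16 for ENSRNOT00000005372 and at -2.99 to -2.34 for ENSRNOT00000023548.

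In the other direction, ENSRNOT00000044723 carried more footprints in liver, and its RNA difference did not pass the test (log2 difference -0.08, edgeR adjusted p = 0.373). Its footprints were at 9.32, 7.77 and 6.86 CPM in liver, against 1.46, 1.76 and 1.05 CPM in brain, and its RNA-seq level was 72.2, 69.5 and 61 CPM in liver and 73.5, 73.3 and 66.5 CPM in brain. It was poorly loaded in both organs, with footprints at 0.118 of the RNA-seq level in liver and 0.02 in brain. The log2 difference was 2.59 (edgeR, SE 0.204, adjusted p = 3.1e-06), at 2.23 to 2.76 over the 20 alternatives. ENSRNOT00000042722 lay lower still, with footprints at 1.18, 1.28 and 1.33 CPM in liver (8, 11 and 14 counts) against 0.0561, 0.126 and 0.299 CPM in brain (1, 1 and 4 counts), while RNA-seq gave 70.2, 70 and 60.5 CPM in liver and 67.1, 62.9 and 56.2 CPM in brain. Its log2 difference was 2.89 (edgeR, SE 0.471, adjusted p = 0.000505), at 1.33 to 3.75 over the alternatives, all 20 of them called. The lowest, 1.33, came from limma on ratios with 0.5 CPM added, which is more than its brain footprint level.

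**Figure D2:**
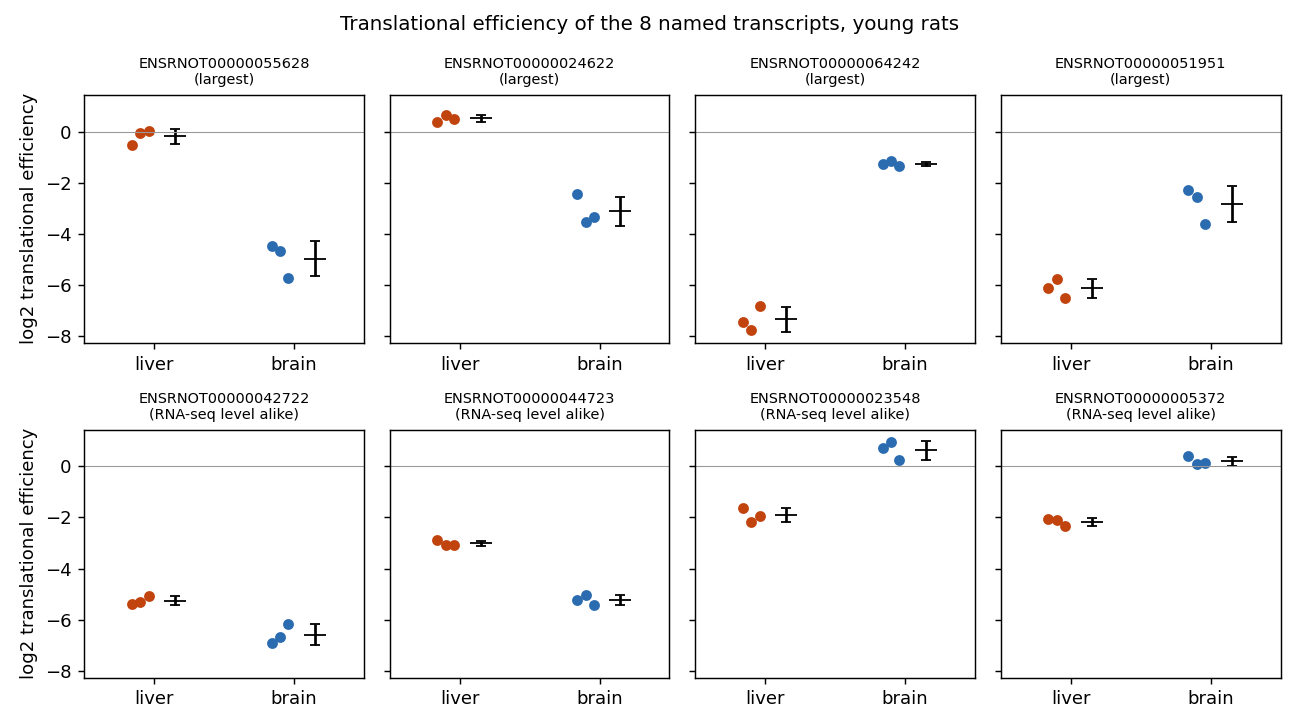
Log2 translational efficiency of the 8 named transcripts in liver (orange, left) and brain (blue, right) of the 3 young rats, one point per animal, with the mean and SD beside them in black; values are log2 ratios of TMM-scaled CPM with 0.5 CPM added. The organs do not overlap for any of the 8, which were chosen for large differences. Of all tested transcripts, 5029 of 10420 (48.3%) do not overlap. ENSRNOT00000064242 in liver lies at -7.77 to -6.81 and ENSRNOT00000042722 in brain at -6.92 to -6.15, and the added 0.5 CPM raises both.

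The efficiency difference was then set against the RNA difference. Young RNA-seq counts are the denominator of young efficiency, so transcripts were classed by the RNA difference measured in other libraries, those of old animals 1 and 3. All of them had first passed the expression rule on young RNA-seq and footprint counts, and the part of that choice in the class differences was not tested. Old animal 2 was not used for this, since the 50 liver-enriched transcripts stood at 4.16% of their old liver level in its brain RNA-seq and at 5.76% in its brain footprints, against 0.0628% to 0.291% in the brain libraries of old animals 1 and 3. The classes were cut on TMM-scaled CPM, and classes cut with other scaling were not tested. The 2206 transcripts with RNA over 2-fold higher in old liver had a median log2 efficiency difference of -0.00272, 0.151 and 0.0198 in young animals 1, 2 and 3. For the 6033 transcripts within 2-fold it was -0.0242, 0.0157 and -0.0182, and for the 2181 with RNA over 2-fold higher in brain it was -0.229, -0.241 and -0.256. Brain-rich transcripts thus stood lower in liver efficiency than both other classes in each animal. The liver-rich class exceeded the brain-rich class by 0.226, 0.392 and 0.276 in animals 1, 2 and 3. This gap was 0.228 on average with plain CPM and 0.298 with TMM. Scaling moves all transcripts of a library by one factor, so it could change this gap only through the 0.5 CPM added.

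Calls followed the same order. Among brain-rich transcripts 7.61% were called higher and 26.1% lower, among those within 2-fold 13.2% and 16.9%, and among liver-rich ones 16.3% and 14.1%, where 12.7% and 18.2% of all tested transcripts were called. In the 442 transcripts with RNA over 8-fold higher in old brain, the young RNA difference had a median of -3.97 on the log2 scale and the young footprint difference -4.42. In the 585 with RNA over 8-fold higher in old liver these medians were 4.11 and 4.37. With TMM, footprints differed between the organs by more than RNA at both ends of the range. The median efficiency difference was 0.16 ± 0.13 at the liver end and -0.41 ± 0.047 at the brain end (SD over 3 animals). With plain CPM the median of all transcripts was -0.27 on this scale, the liver end stood at -0.11 and the brain end at -0.51. The sign at the liver end thus depends on the scaling. Its position above the rest hardly could, since scaling moves all transcripts of a library by one factor, so that position is no separate check.

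**Figure D3:**
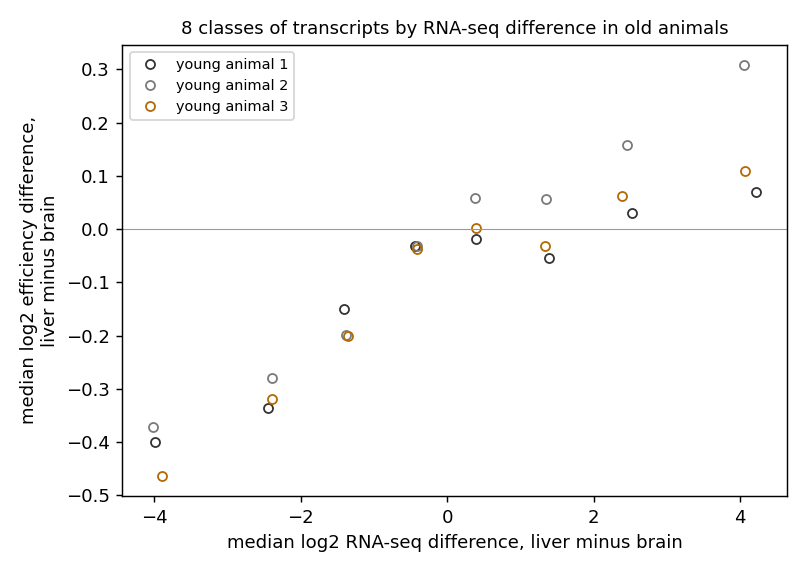
Median log2 difference in translational efficiency between liver and brain (vertical axis) against the median log2 RNA-seq difference (horizontal axis) for 8 classes of transcripts, one open circle per class and young animal (black, grey and orange for animals 1, 2 and 3). Classes were cut by the RNA difference in old animals; all 3 animals run from -0.463 to -0.371 in the most brain-rich class to 0.0707 to 0.308 in the most liver-rich class.

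The only other property that the files give for a transcript is a whole number that no header defines and that behaves like a length. It ran from 6 to 8007 among the tested transcripts, with a median of 438. Efficiency fell with it in both organs and fell more steeply in liver. In the 2089 transcripts with values of 6 to 217, the median log2 efficiency was 0.67 ± 0.029 in liver and 0.493 ± 0.029 in brain (SD, n = 3). In the 2081 with values of 821 to 8007 it was -0.713 ± 0.067 in liver and -0.406 ± 0.051 in brain. Spearman's rho of log2 efficiency with the value was -0.461 to -0.446 in liver and -0.367 to -0.32 in brain.

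The organ difference consequently shifted with this value. In animals 1, 2 and 3, the median log2 difference was 0.121, 0.182 and 0.0829 in the shortest bin and -0.251, -0.26 and -0.219 in the longest bin of 5 equal bins. The shortest bin exceeded the longest by 0.373, 0.442 and 0.302. That gap was 0.352 on average with plain CPM, under which the shortest bin stood at -0.11 and the longest at -0.46, and 0.372 with TMM. Here too, scaling could change the gap only through the 0.5 CPM added. Transcripts called higher in liver had a median value of 338 and those called lower 575. In the shortest bin 19.8% were called higher and 11.6% lower, and in the longest bin 7.54% and 30.2%.

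The shift was seen within each class of RNA difference. From the shortest to the longest bin, the median efficiency difference, averaged over animals, ran from 0.179 to -0.0924 among liver-rich transcripts, from 0.15 to -0.219 among those within 2-fold and from -0.0169 to -0.405 among brain-rich ones. The assays differed in their own relation to the value: Spearman's rho of log2 CPM with it was 0.0363 to 0.0611 in liver footprints, 0.28 to 0.284 in liver RNA-seq, 0.171 to 0.175 in brain footprints and 0.337 to 0.358 in brain RNA-seq. Whether this comes from translation or from how the libraries were made was not tested. With a smooth trend on the value removed from each library, 3136 transcripts were called, 1525 higher and 1611 lower, and 2697 of the 3222 calls stayed with the same sign.

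**Figure D4:**
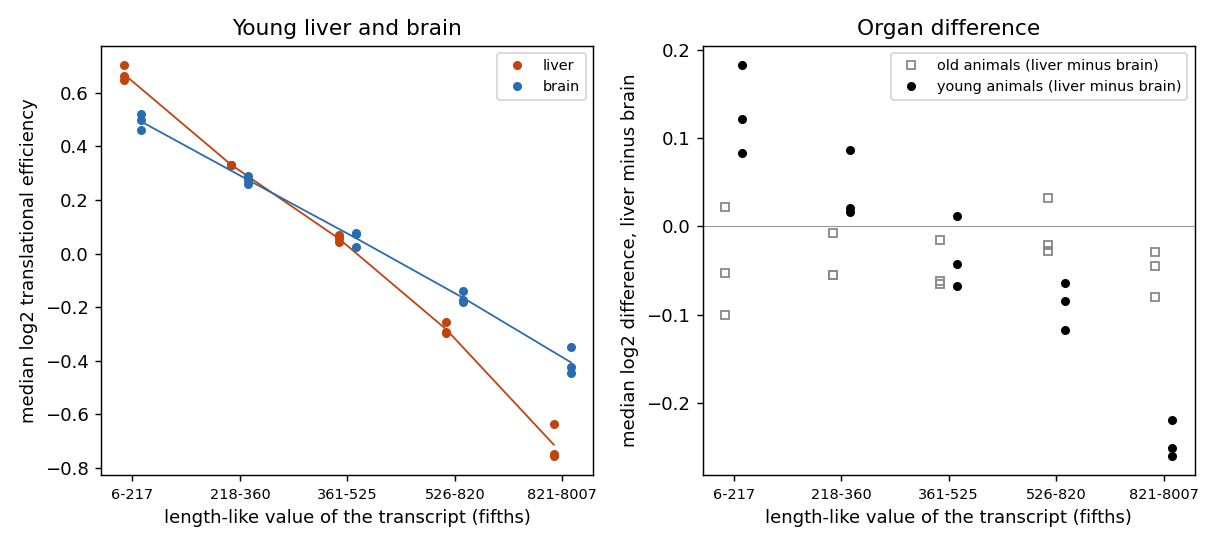
Left, median log2 translational efficiency in 5 equal bins of the length-like value for liver (orange) and brain (blue) of 3 young rats, with a line through the means; right, the liver minus brain difference for each old (open squares) and young (filled circles) animal. The liver line is the steeper one, and the young difference falls from 0.0829 to 0.182 in the shortest bin to -0.26 to -0.219 in the longest, while the old values lie between -0.101 and 0.0325 in every bin.

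The old rats supplied a second set of animals for the same comparison. Of 10420 transcripts, 2005 (19.2%) differed in efficiency between old liver and old brain, 811 (7.78%) higher and 1194 (11.5%) lower in liver, by the same edgeR test. Leaving out old animal 1, 2 or 3 gave 427, 812 and 1268 calls. Of the transcripts called higher in young liver, 1223 of 1321 (92.6%) had the same sign in old animals, and of those called lower 1772 of 1901 (93.2%), against 67% of the 7198 not called in young animals. Called in both ages with the same sign were 489 higher and 867 lower transcripts, which is 67.6% of the old and 42.1% of the young calls, and 1 transcript was called in opposite directions. The log2 differences of old and young animals correlated at r = 0.724 across transcripts. With old animal 2 left out, whose brain libraries held more of the liver-enriched transcripts than the others, the same-sign share of all young calls was 91.9%, against 93% with it.

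**Figure D5:**
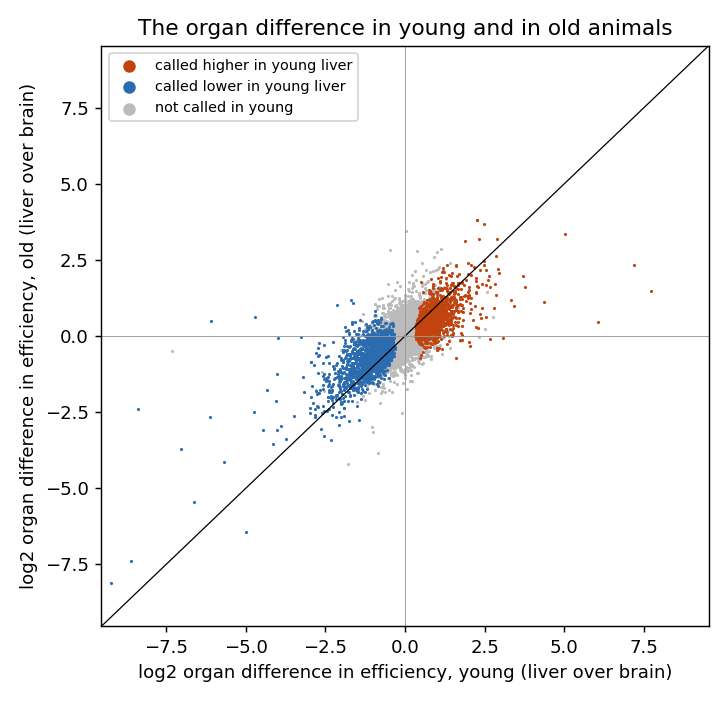
Log2 difference in translational efficiency, liver over brain, of 10420 transcripts in old rats (vertical axis) against young rats (horizontal axis), from separate edgeR fits. Orange and blue points were called higher and lower in young liver; 92.6% of the orange and 93.2% of the blue points have the same sign in old rats, and the line marks equal differences.

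The named transcripts were chosen for the size of their difference in young animals, so a smaller value in old animals is no sign of a change with age. The old log2 difference was -3.72 for ENSRNOT00000064242 (adjusted p = 4.79e-05), -3.08 for ENSRNOT00000051951 (0.00532) and 3.34 for ENSRNOT00000055628 (0.000133), all by edgeR. For ENSRNOT00000024622 it was 1.11 (adjusted p = 0.607), with old brain footprints at 1.19, 24 and 0.234 CPM, of which 24 CPM was in animal 2. Among the transcripts with RNA within 0.5 on the log2 scale it was -1.64 for ENSRNOT00000005372 (adjusted p = 0.000138), -1.89 for ENSRNOT00000023548 (0.0129), 1.84 for ENSRNOT00000044723 (0.00144) and 3.18 for ENSRNOT00000042722 (0.00652).

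A test of the change in the organ difference with age, over all 24 libraries, called 2 of 10420 transcripts (0.0192%; edgeR, animal as block). Both had a higher liver over brain efficiency in old than in young rats, and 0 were called lower. In the same edgeR test 1201 had an unadjusted p under 0.05 in either direction. Transcripts that it did not call are not shown to be alike between the ages. For ENSRNOT00000064242, liver footprints stood at 2.16, 3.61 and 1.91 CPM in old and 0.445, 0.233 and 0.669 CPM in young rats, and liver RNA-seq at 58.6, 117 and 76 CPM in old and 163, 159 and 130 CPM in young rats. Its organ difference moved by 3.32 on the log2 scale (SE 0.492, edgeR adjusted p = 0.0208). In liver the ages did not overlap in either assay, and footprints were higher and RNA lower in old animals. Traces of brain transcripts in old liver were not measured.

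The other one was ENSRNOT00000051002, whose brain footprints were at 42, 44.6 and 46.1 CPM in old and 67.9, 67.1 and 66.4 CPM in young rats, and whose liver footprints were at 24.8, 29.6 and 30.6 CPM in old and 20.9, 19.8 and 22.8 CPM in young rats. Its RNA-seq level was 7.08 to 10.5 CPM in every organ of old and 9.57 to 12.6 CPM in every organ of young rats. Its organ difference of -1.83 in young animals (edgeR adjusted p = 1.02e-05) moved by 1.38 (SE 0.219, adjusted p = 0.0229). Of 6 fits that leave out 1 animal each, 5 called neither of these transcripts, while 741 to 1211 transcripts had an unadjusted p under 0.05. In these 5 fits the edgeR adjusted p was 0.0573 to 0.701 for ENSRNOT00000064242 and 0.0795 to 0.701 for ENSRNOT00000051002. Over all 6 fits the change was 2.90 to 3.96 for ENSRNOT00000064242 and 1.24 to 1.52 for ENSRNOT00000051002. Without old animal 2, ENSRNOT00000064242 was called (adjusted p = 0.00799) and ENSRNOT00000051002 was not (0.0972).

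The relation of the organ difference to the length-like value was also described in old animals. The shortest bin exceeded the longest in the organ difference by -0.024, -0.0558 and 0.103 in old animals 1, 2 and 3 and by 0.373, 0.442 and 0.302 in young animals 1, 2 and 3. The ages did not overlap (difference of means -0.365, two-sided exact permutation p = 0.1, the smallest that 3 against 3 allows). This test could not have given a p under 0.05, so a difference between the ages is not established. The tested transcripts, from which the bins were cut, were chosen on young libraries, and old libraries were scaled on their own.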

How the data were processed

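The authors deposited one table per library with a whole-number count and a length-like value for each transcript. This value has an undefined unit, is the same in all files and is other than a measurement. The submitters' processing notes list the build rn4 and the tools DESeq, TopHat2 2.0.10 and Bowtie 1.0.0.0. Which step each served, the annotation, and how multiply mapping reads were counted were not given in the sources used here. Per the labels' protocols, RNA-seq used a stranded kit on total RNA, and footprints came from RNase I digestion, ribosome pelleting, linker ligation, circularisation and PCR. Transcripts that share sequence may share reads; 27 tested transcripts had the same counts as another in all 24 libraries and were not named.

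Fits used edgeR 4.0.16 in R 4.3.3 (TMM on the tested transcripts, robust quasi-likelihood F test, two-sided, Benjamini-Hochberg over all tested transcripts). Standard errors come from the F statistic. CPM values are TMM-scaled, except in the expression rule and the carry-over sums, which use library totals. Old libraries were scaled on their own, and all 24 together in the test of age. Log2 ratios had 0.5 CPM added. Fits were tested on simulated data. Alternative tools were DESeq2 1.42.0 and limma 3.58.1. PCR duplicates could not be told from separate molecules.

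Animal codes in the titles tie the 4 libraries of an animal together. Same-animal deviations correlated at 0.399 to 0.532 between footprints and RNA-seq in liver, 0.145 to 0.319 in brain, 0.121 to 0.226 between organs in RNA-seq and 0.026 to 0.107 in footprints. Each was above those of other animals, but between organs in footprints animal 2 hardly so (0.026 against 0.0254). Replicates agreed at r of 0.966 to 0.997 and all pairs differed by more than sampling noise (the chi-square was at least 3.49 times its degrees of freedom).

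Named transcripts had an adjusted p under 0.05, at least 5 CPM of RNA in each organ, at least 10 footprint counts on average in one organ and the same sign in 3 animals; the 2 largest in each direction were taken, overall and among those with RNA within 0.5 on the log2 scale. For the test of age, up to 2 called in each direction were taken. The rule, the members and the lists were chosen with earlier results of these data known. Gene lists and markers were not used, since no identifier could be paired with a name.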

Additional observations from a re-analysis of the deposited data

Results flagged for a closer look

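The organ difference in translational efficiency of ENSRNOT00000064242 was less negative in old than in young rats, by 3.32 on the log2 scale (SE 0.492, edgeR adjusted p = 0.0208 for the change with age over 24 libraries). Its young liver footprints rest on 3, 2 and 7 counts and its old liver footprints on 14, 27 and 20 counts, so the young ratio is the less precise one. The part of traces from brain in these liver counts was not tested.

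The organ difference of ENSRNOT00000051002 was also less negative in old rats, by 1.38 (SE 0.219, edgeR adjusted p = 0.0229). Both stood out because the test compares the ages directly; each call was lost in fits that left out single animals, while the change stayed at 2.90 to 3.96 for ENSRNOT00000064242 and 1.24 to 1.52 for ENSRNOT00000051002.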

How the results depend on the processing

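Without the replicate block, 3004 transcripts were called (1198 higher, 1806 lower; 2937 of the 3222 with the same sign). With a replicate block for each animal and organ it was 3836, with limma on per-animal differences 3953, with limma-voom 3225 and with DESeq2 3376. With an animal left out, the count ranged from 1403 to 3227 (519 to 1375 higher, 884 to 1852 lower), in old rats from 427 to 1268 (156 to 554 higher, 271 to 714 lower), and in the edgeR test of age from 0 to 2, with 741 to 1211 at an unadjusted p under 0.05. Called in old rats without the replicate block were 1799, and by the test of age 3. Plain CPM called 619 higher and 3017 lower. Thinning all libraries to the smallest total gave 2620, and minimum RNA levels of 0.5 and 5 CPM gave 3239 and 2817. The median log2 difference moved to -0.299 with plain CPM, 0.0245 with upper-quartile factors, -0.00017 with median-ratio factors, 0.000589 with DESeq2 and 0.0172 with the length trend removed. In none of the 20 alternatives was a transcript called in the direction opposite to its call in the 3222. The alternatives refit the same young libraries or subsets of them, so this is no separate replication. Without animal 2, 42.7% of the 3222 calls stayed with the same sign, and without animal 3, 53.4%. Depth limits the scarcest transcripts, and the shallowest young library was the brain footprints of animal 2, with 5652238 counts.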
